A study of Mus musculus with 9 samples.

Results

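The genes described here are 10 components of the photoreceptor ribbon synapse: Cacna1f, Cacna2d4, Cabp4, Slc17a7, Bsn, Pclo, Cplx3, Cplx4, Unc119 and Stx3. Their probes were found by symbol, as those that are not controls and whose gene name on the array equals one of these symbols. All 10 of 10 were on the array, with 15 of its 39429 probes, and the array carries 31829 distinct gene names. Choroid (CH), retinal pigment epithelium (RPE) and photoreceptors (PR) had been cut by laser from frozen eyes of healthy female C57BL/6 mice, labelled as 6 months old with a range of 2 weeks, and there were 3 arrays per tissue and 1 whole eye per sample. The study's methods name the J strain and give another age. No gene was altered and no treatment was given. On each of the 9 arrays the tissue was labelled with Cy5 and hybridised against a Cy3-labelled common reference of mouse choroid and RPE, with the dyes in the same orientation throughout. The value used below is the log2 ratio of tissue over reference on an array, and the question addressed is how far these genes mark PR against the layers beside it.

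Rods and cones release glutamate continuously in the dark, and the release slows in light. To sustain this they tether vesicles to a ribbon, an electron-dense plate whose main protein is RIBEYE, made from the Ctbp2 gene. Calcium enters beneath the ribbon through the Cav1.4 channel, whose pore is Cacna1f. Cacna2d4 is its extracellular auxiliary subunit and Cabp4 a calcium-binding protein that tunes its opening. Slc17a7 (VGLUT1) loads glutamate into vesicles, Bsn (bassoon) and Pclo (piccolo) are the large scaffolds of the active zone, Cplx3 and Cplx4 are the complexins of retinal ribbon synapses, and Stx3 is the syntaxin that stands there in place of syntaxin 1. Unc119 is a lipid-binding trafficking protein that is abundant in photoreceptors and was also found at their synapse.

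The tissue labels were checked against marker genes. All 8 of 8 rod markers and all 8 of 8 cone markers were called higher in PR than in RPE, where a call needed a fold change (FC) above 2.5 and a Benjamini-Hochberg adjusted p below 0.01. Of 9 RPE markers, 8 were called lower in PR than in RPE and 6 higher in RPE than in CH. All 6 of 6 fibroblast markers were called lower in RPE than in CH, beside 0.185% of all probes higher and 1.55% lower. Of 7 endothelial markers 0 were called between RPE and CH. Their mean log2 ratio was 1.15 to 1.28 on the RPE arrays and 0.93 to 1.58 on the CH arrays. RPE replicate 2 stood apart in signal, with 91.7% of probes well above background against 62.1% to 71.2% on the other 8 arrays. The arrays were run on 3 slides: slide 1 held PR replicates 1 and 3, slide 2 held replicates 1 and 3 of CH and RPE, and slide 3 held replicate 2 of all 3 tissues. These were bulk dissections, so that fewer cells of a type and less RNA per cell cannot be told apart.

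Stx3 and Pclo are measured by several probes that are listed for different transcript variants, and these probes gave different answers. Their sequences are shown because the reading of both genes turns on them. Each is printed 5′ to 3′ in lower case as the array files give it, whole where 60 bases are shown and otherwise as its first 30 bases.
Stx3 variant B and 1 other transcript, probe A_52_P526379: gatggtataaatttctattagtactctcat
Stx3 variant A, probe A_55_P2171658: ggccagctgaaagtttgaaatgccacatat
Stx3 variant A, probe A_51_P100298: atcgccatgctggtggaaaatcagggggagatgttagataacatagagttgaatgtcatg
Pclo variant 2, probe A_55_P2014755: gtatcagctgtgttgggcatgtgaatatcc
Pclo variant 1, probe A_55_P2014750: gtaaactgtgccgtataaaggttgttgtac
Pclo variant 1, probe A_52_P336904: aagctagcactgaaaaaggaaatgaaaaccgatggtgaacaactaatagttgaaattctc
Pclo both variants, probe A_55_P2058143: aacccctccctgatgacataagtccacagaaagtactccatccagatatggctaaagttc

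In the mm9 coordinates of the files, the Stx3 gene lies on the minus strand of chromosome 19. The probe listed for variant B and for 1 other RefSeq transcript, called the variant B probe below, covers chr19:11850243-11850302, the first variant A probe covers chr19:11852038-11852097, and the second variant A probe spans chr19:11857591-11859903, so that its 60 bases cross at least 1 splice junction. The Pclo probes lie on the plus strand of chromosome 5, in the order chr5:14682209-14682268 (both variants), chr5:14795934-14795993 (variant 2), chr5:14855569-14855628 and chr5:14863399-14863458 (both variant 1). Which exons these are was not analysed here. For each gene the reported probe is the one with the brightest mean Cy5 signal over the 9 arrays, which was the variant B probe for Stx3 and the variant 2 probe for Pclo.

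The channel and its partners were far higher in PR than in either neighbour. Cacna1f (chrX:7212164-7212223) had log2 ratios of 2.38, 2.60 and 2.23 on the PR arrays, 0.10, -0.33 and -0.20 on the RPE arrays and -0.70, -0.45 and -0.14 on the CH arrays. All PR arrays stood far above all RPE arrays, and RPE and CH overlapped. The FC was 5.86 for PR over RPE (log2 difference 2.55, SE 0.17, adjusted p = 9.58e-07) and 7.14 for PR over CH (adjusted p = 3.62e-07).

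In the log2 ratio Cacna2d4 (chr6:119301349-119301408) showed the largest difference against RPE among the 9 genes whose probe was not saturated. Its PR values were 1.69, 2.32 and 1.83, its RPE values -0.32, -0.85 and -0.94 and its CH values -1.20, -0.80 and -0.88. The PR group was again clear of the others, with PR replicate 2 its highest array. The FC was 6.28 over RPE (log2 difference 2.65, SE 0.21, adjusted p = 3.26e-06) and 7.49 over CH. Cabp4, whose probe spans 158 bases of genome at chr19:4135997-4136154 and so crosses a splice junction, read 1.56, 1.80 and 1.59 in PR, -0.23, -1.03 and -0.56 in RPE and -1.21, -1.06 and -0.95 in CH. Its FC was 4.79 over RPE (log2 difference 2.26, SE 0.18, adjusted p = 3.89e-06) and 6.61 over CH. The 3 parts of the channel complex thus changed in the same direction, by 2.26 to 2.65 in the log2 ratio against RPE. For Cacna1f the reference signal differed too, with a median Cy3 of 3892 on the PR arrays and 2438 on the RPE arrays. In Cy5 alone after quantile normalization its difference over RPE was 3.58, whereas that of Cacna2d4 was at most 3.17 under any processing tested. The order of Cacna1f and Cacna2d4 thus depended on the measure.

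**Figure D1:**
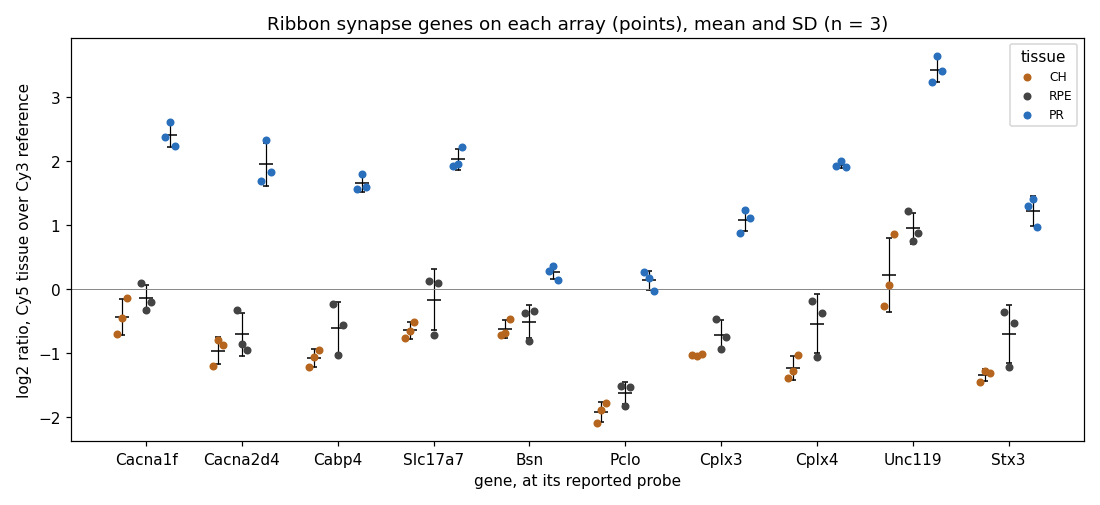
Log2 ratio of tissue (Cy5) over common reference (Cy3) for each of the 10 genes at its reported probe. Points are the 3 arrays of CH, RPE and PR, and black marks are the mean with SD. The PR arrays lie above all RPE and CH arrays for every gene, by the least for Bsn, and RPE and CH lie close together.

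Slc17a7 (chr7:52430841-52430900), which fills the vesicles, read 1.92, 1.95 and 2.22 in PR, 0.12, -0.72 and 0.09 in RPE and -0.77, -0.65 and -0.52 in CH. The PR arrays were again apart, and RPE replicate 2 sat with the CH arrays. The FC was 4.58 over RPE (log2 difference 2.20, SE 0.21, adjusted p = 1.25e-05) and 6.37 over CH.

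The 2 active zone scaffolds differed in size of change. Bsn (chr9:107998602-107998661) had PR values of 0.28, 0.36 and 0.15, RPE values of -0.37, -0.81 and -0.35 and CH values of -0.72, -0.68 and -0.46. All PR arrays were above all others, but the FC was only 1.71 over RPE (log2 difference 0.77, SE 0.14, adjusted p = 0.00107) and 1.84 over CH (log2 difference 0.88, adjusted p = 0.000392). Bsn was the 1 gene of the 10 that did not reach the 2.5-fold limit, although its adjusted p was below 0.01 in both comparisons. On the scanner software's own processed signals the PR minus CH difference was 1.45 and passed.

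Pclo at its variant 2 probe read 0.26, 0.18 and -0.03 in PR, -1.52, -1.82 and -1.52 in RPE and -2.08, -1.88 and -1.78 in CH. Its FC was 3.38 over RPE (log2 difference 1.76, SE 0.13, adjusted p = 1.96e-06) and 4.14 over CH. The other 3 probes had PR above RPE on every array too, but by less. The variant 1 probe farthest along the gene gave a log2 difference of 1.35 against RPE (adjusted p = 0.000203), a call that was lost on leaving out RPE replicate 2 (1.25), RPE replicate 3 (1.30), PR replicate 1 (1.23) or PR replicate 2 (1.31). The second variant 1 probe gave 0.80 and was well above background on only 1 of 3 CH and 2 of 3 RPE arrays, and the probe shared by both variants gave 0.42. Neither reached the fold limit against RPE or CH. The second variant 1 probe did pass it over CH under 5 other normalizations (1.39 to 2.08) and over RPE under 2 (1.38 and 1.52), and the shared probe passed over CH on the scanner software's signals (1.34). The size of the Pclo difference therefore ran from 0.42 to 1.76 with the probe used, while the direction was the same at all 4.

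The complexins of ribbon synapses were both called. Cplx3 (chr9:57449640-57449699) read 0.88, 1.24 and 1.12 in PR, -0.47, -0.94 and -0.75 in RPE and -1.03, -1.04 and -1.01 in CH. The FC was 3.48 over RPE (log2 difference 1.80, SE 0.13, adjusted p = 2.24e-06) and 4.31 over CH. Cplx4 read 1.92, 2.00 and 1.90 in PR, the tightest PR group of the 10 (SD 0.05), against -0.18, -1.06 and -0.37 in RPE and -1.38, -1.28 and -1.02 in CH. Its FC was 5.57 over RPE (log2 difference 2.48, SE 0.20, adjusted p = 4.18e-06) and 8.99 over CH.

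The Stx3 probes gave opposite directions. The variant B probe read 1.30, 1.40 and 0.96 in PR, -0.36, -1.21 and -0.52 in RPE and -1.44, -1.27 and -1.31 in CH, so that PR was highest throughout. The FC was 3.78 over RPE (log2 difference 1.92, SE 0.21, adjusted p = 3.12e-05) and 5.92 over CH (log2 difference 2.56, adjusted p = 3.19e-06). Syntaxin 3B is the form known from retinal ribbon synapses, whereas syntaxin 3A is known from the apical membrane of epithelia.

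The first variant A probe went the other way. It read -1.77, -1.74 and -1.97 in PR, 0.35, 0.72 and 0.72 in RPE and 0.24, 0.31 and 0.48 in CH, so that the highest PR array lay far below the lowest array of either other tissue. PR was 5.36-fold lower than RPE (log2 difference -2.42, SE 0.13, adjusted p = 2.13e-07) and 4.49-fold lower than CH (log2 difference -2.17, adjusted p = 3.38e-07), and this was called under each of the alternatives that were tested. The second variant A probe, spotted 10 times on each array and averaged, read -0.99, -0.67 and -0.72 in PR, -0.33, -0.07 and -0.16 in RPE and -0.79, -1.15 and -1.43 in CH. Its PR arrays were below its RPE arrays but by a log2 difference of only -0.61 (adjusted p = 0.0109), they overlapped the CH arrays, and its RPE minus CH difference of 0.94 (adjusted p = 0.0033) did not reach 2.5-fold either. The 2 variant A probes thus gave unequal differences. A single value per gene hid the split: averaged over the 3 probes, Stx3 gave -0.37 for PR minus RPE and 0.24 for PR minus CH, and no call.

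**Figure D2:**
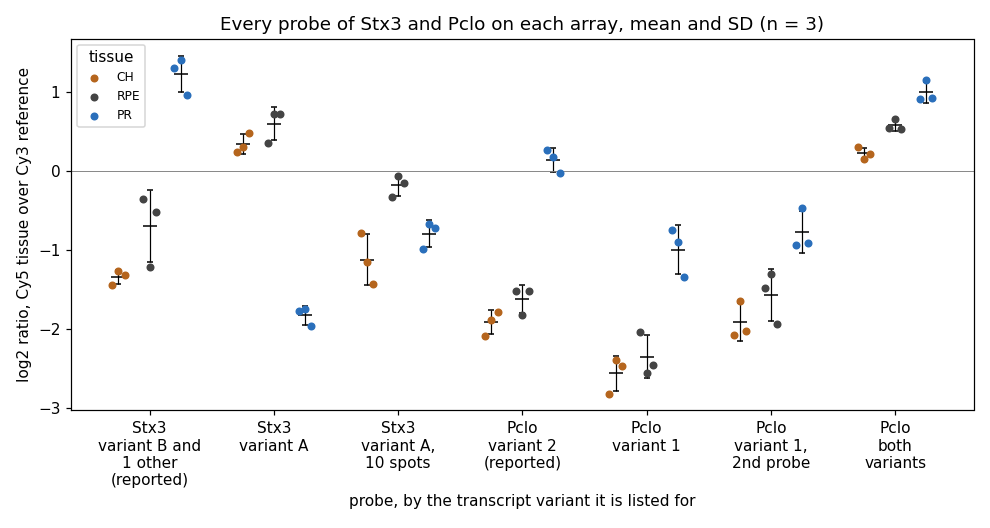
Log2 ratio of tissue over reference at each probe of Stx3 and Pclo, grouped by the transcript variant the array files list for it. Points are the 3 arrays per tissue, and black marks are the mean with SD. The PR arrays are highest at the Stx3 probe listed for variant B and 1 other transcript and lowest at the first variant A probe, while at the 4 Pclo probes PR is highest by differing amounts.

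Unc119 (chr11:78162599-78162658) had ratios of 3.24, 3.64 and 3.41 in PR, against 1.21, 0.75 and 0.88 in RPE and -0.26, 0.07 and 0.85 in CH. It was called in both comparisons (log2 difference 2.48, adjusted p = 2.25e-05 over RPE and 3.21, adjusted p = 2.89e-06 over CH), but these sizes are not reliable. The Cy5 signal of this probe was saturated on all 3 PR arrays and on 2 of 3 RPE arrays. Its Cy3 signal, from the same reference on all arrays, had a median of 29407 on the PR arrays and 100594 on the CH arrays, a ratio of 0.292, whereas for the other 9 genes that ratio was between 0.977 and 1.67. In the Cy5 channel alone PR was at least 1.69-fold higher than CH after Aquantile normalization (log2 difference 0.75), but the bound moved with the scaling, to a log2 difference of 0.58 after quantile normalization, and neither was a call. In that channel against RPE no bound is given, since most RPE arrays were saturated too.

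Over the reported probes, 9 of the 10 genes were called higher in PR than in RPE, where 5.17% of all probes were called higher and 10.3% lower. In PR against CH 9 of 10 were called higher, beside 6.33% of all probes higher and 12.0% lower. The exception was Bsn in each case, and without Unc119 the count would be 8 of the remaining 9. The PR arrays were all above the RPE arrays for 10 of 10 genes, as for 29.7% of all probes, and above the CH arrays for 10 of 10, as for 34.0%. The median log2 difference of the 10 genes was 2.23 over RPE and 2.70 over CH, and over all probes it was 0.01 and 0.05. The 2 comparisons share the PR arrays. Within slide 3, the 1 slide that held all tissues, PR exceeded RPE by 1.17 to 3.17 with a median of 2.75, and 9 of 10 genes were past 2.5-fold, with 1 array a tissue and hence no test.

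**Figure D3:**
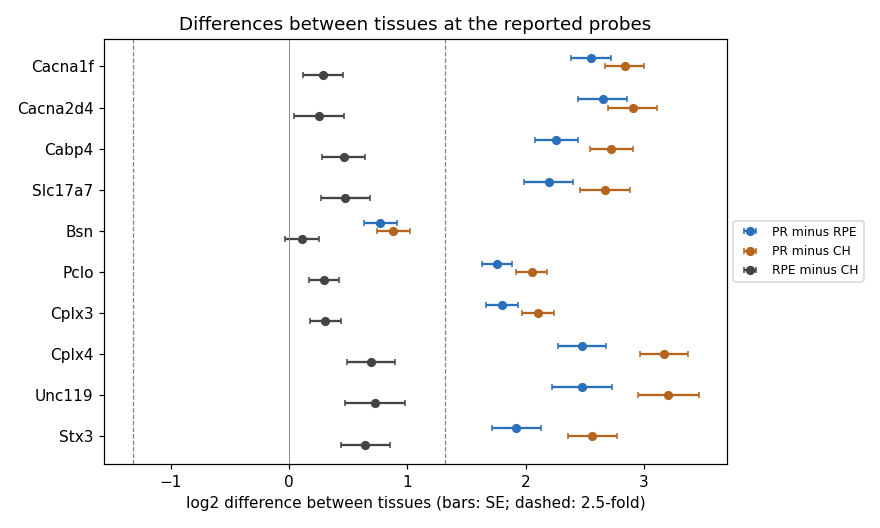
Log2 difference between tissues for each gene at its reported probe, with the SE of the linear model as bars and dashed lines at 2.5-fold. Both PR comparisons lie beyond 2.5-fold for 9 genes and short of it for Bsn, and RPE minus CH lies between 0.11 and 0.73 for all 10. The Unc119 probe was saturated on all 3 PR and on 2 of 3 RPE arrays, so its sizes are not reliable.

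Between RPE and CH no gene of the 10 was called in either direction by limma, beside 0.185% of all probes called higher and 1.55% lower. Ratios were nonetheless higher in RPE than in CH for 10 of 10 gene means, by 0.11 to 0.73, as for 56.4% of all probes. The largest, 0.73, was that of Unc119, whose probe was saturated on 2 of 3 RPE arrays, so its size is not reliable. For 7 of 10, with Unc119 counted, the unadjusted p was below 0.05 as well, beside 17.9% of all probes. Within slide 3 the difference was negative for 3 of the 10 genes, Cacna2d4 (-0.05), Slc17a7 (-0.07) and Bsn (-0.13). Median centring also turned Cacna2d4 (-0.01) and Bsn (-0.07), Cy5 alone after quantile normalization turned Bsn (-0.01), and the deposited table turned Unc119 (-0.22). After adjustment over all probes 1 was below 0.05, Cplx4 (log2 difference 0.69, SE 0.20, adjusted p = 0.0354). The RPE arrays were all above the CH arrays for 2 of 10 genes, Cplx3 and Stx3, and for 20.7% of all probes. At the reported probes of the 9 genes other than Cplx4, no order of RPE and CH passed an adjusted p of 0.05. Other probes did so with RPE above CH, namely the second variant A probe of Stx3 (0.94, adjusted p = 0.0033) and the shared probe of Pclo (0.35, adjusted p = 0.0268).

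The size of the RPE excess moved with the arrays included. RPE replicate 1 was the highest RPE array for 9 of 10 genes and RPE replicate 2 the lowest for 9 of 10. The mean log2 ratio of the 8 rod markers moved with it, at 0.00 on RPE replicate 1 against -0.91 and -0.62 on replicates 2 and 3, and between -1.46 and -0.68 on the CH arrays. Without RPE replicate 1 the median RPE minus CH difference of the 10 genes was 0.26 in place of 0.39, without RPE replicate 2 it was 0.55, and within slide 3 it was 0.06. The part of photoreceptor RNA in these RPE and CH values was not tested. All 15 probes were also well above background in the reference channel on 9 of 9 arrays, so that the choroid and RPE reference itself held signal for every one of these genes. Of all probes 69.3% to 89.9% were so on an array, so most probes of the array shared this.

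Relatives of the 10 genes, which serve other synapses and cells, were followed beside them. Of 22 paralogs 1 was called higher and 2 lower in PR against RPE, beside 5.17% of all probes higher and 10.3% lower. Against CH 2 were called higher and 3 lower, beside 6.33% and 12.0% of all probes. These counts were near the shares of all probes. The median log2 differences of the paralogs were -0.16 over RPE and 0.08 over CH. In the pore family, Cacna1s, the skeletal muscle channel, differed by 1.15 over RPE, past the limit under 6 alternatives (1.35 to 1.69), and was called over CH (1.42, adjusted p = 1.09e-05) but not without PR replicate 2 (1.30), Cacna1d was -0.79 over RPE, and Cacna1b, Cacna1c and Cacna1e were not well above background on any PR array. Among the auxiliary subunits Cacna2d3 was called higher (1.33, adjusted p = 0.00018), a value just past the 2.5-fold limit that lost its call without RPE replicate 2 (1.25) or without PR replicate 2 (1.11). Cacna2d1, the form of muscle and many other tissues, was called lower (-1.40 over RPE and -2.36 over CH), though its call over RPE was lost under 5 alternatives (-1.26 to -1.01), among them without PR replicate 3 (-1.20). Cacna2d2 differed by -0.43 over RPE, without a call.

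The other glutamate transporters differed from Slc17a7. Slc17a6 (VGLUT2), typical of ganglion cells, had a PR minus RPE value of -0.64 (adjusted p = 0.078) and Slc17a8 (VGLUT3), known from some amacrine cells, -0.75 (adjusted p = 0.0356), neither called. The complexins of conventional synapses, Cplx1 and Cplx2, had values of -0.12 and 0.86 over RPE and no call. Among syntaxins, the neuronal Stx1a was not well above background on any PR array, Stx2 was -1.30, just short of the limit and past it without RPE replicate 1 (-1.33) or PR replicate 1 (-1.36), and Stx4a, a syntaxin of the general cell surface, was called lower (-1.61, adjusted p = 1.02e-06). Unc119b differed by -0.21, and of the calcium-binding relatives Cabp2 was highest at 0.96 without a call, and it passed over RPE under 3 alternatives (1.42 to 1.47). Over CH, at 1.25, Cabp2 passed under 7 (1.39 to 1.88), among them without PR replicate 1 (1.47). On the Feature Extraction signals 3 paralogs were higher and 0 lower against RPE.

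**Figure D4:**
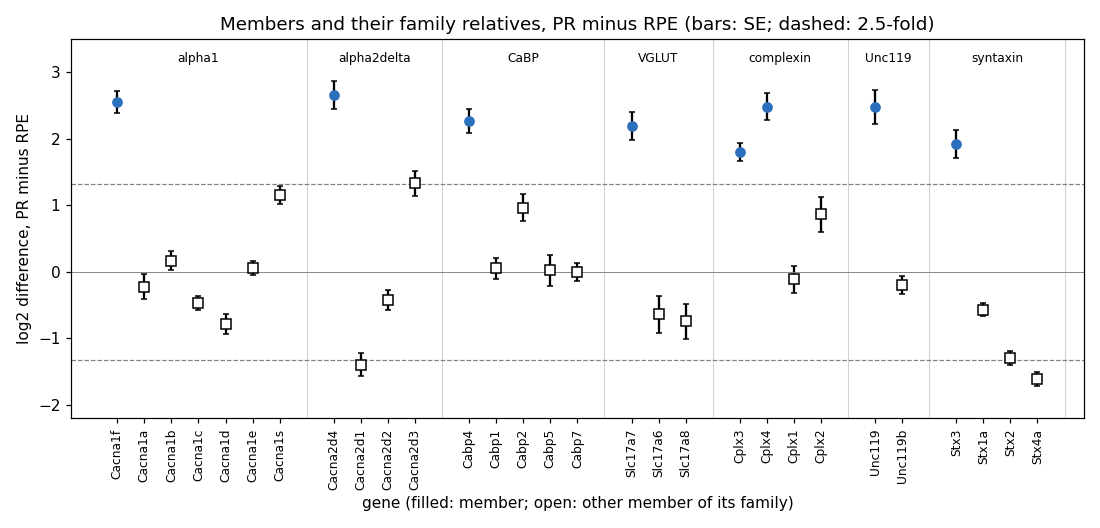
PR minus RPE log2 difference of each member (filled circles) beside other genes of its family (open squares), with SE bars and dashed lines at 2.5-fold. Every member shown lies above the upper line, and 1 relative, Cacna2d3, lies on it.

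Further components of the terminal were followed in 4 lists. Over all probes 5.17% were called higher and 10.3% lower in PR over RPE, with a median log2 difference of 0.01. Over CH these shares were 6.33% and 12.0%, with a median of 0.05. In the ribbon and active zone list 4 of 12 genes were called higher over RPE and 0 lower, with a median of 0.69, and 5 of 12 higher over CH. Mpp4, a scaffold of photoreceptor terminals, was highest of these with values of 2.60, 2.76 and 2.33 in PR and -0.35, -1.24 and -1.03 in RPE (log2 difference 3.44, adjusted p = 8.81e-07). The second Mpp4 probe gave 2.28. Unc13b, a vesicle priming factor, differed by 2.58, Rims2, which couples vesicles to channels, by 2.51 and Dlg4 (PSD-95), which in photoreceptors is presynaptic, by 1.52. Ctbp2 itself, the source of RIBEYE, read 1.12, 0.87 and 0.95 in PR, 0.19, 0.19 and -0.05 in RPE and -0.73, -0.70 and -0.36 in CH. The groups did not overlap, but the FC was 1.83 over RPE, not a call, and 2.98 over CH (log2 difference 1.58, adjusted p = 3.26e-06). The gene also makes the widely expressed CtBP2 repressor, and its 1 probe does not by its listing tell the 2 products apart.

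Of 14 genes of the vesicle cycle, 7 were called higher and 0 lower over RPE, with a median of 1.38, and 8 higher over CH. Among the largest differences over RPE were those of the calcium sensor Syt1 (2.72), the endocytic protein Amph (2.65) and the vesicle protein Syp (2.38), each with an adjusted p at or below 8.79e-06. Of 8 genes for calcium handling, 2 were called higher and 1 lower over RPE, beside 5.17% of all probes higher and 10.3% lower. Over CH 2 were called higher and 2 lower, beside 6.33% and 12.0% of all probes. The median of these 8 was 0.06 over RPE and -0.48 over CH. Cacnb2, the beta subunit paired with Cav1.4 in photoreceptors, read 1.53, 1.55 and 1.48 in PR and -0.87, -1.77 and -1.27 in RPE (log2 difference 2.83, adjusted p = 1.28e-06). The second Cacnb2 probe gave 1.56 and was well above background on 0 of 3 CH and 1 of 3 RPE arrays. The relatives Cacnb3 (-0.35) and Cacnb4 (0.47) were not called over RPE, and Cacnb1 was not well above background on any PR array. Atp2b1, a plasma membrane calcium pump, differed by 2.36, and by 1.86 at its second probe. Itpr1, a calcium release channel of the endoplasmic reticulum, was 15.3-fold lower in PR than in RPE (log2 difference -3.93, adjusted p = 1.56e-08).

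Of 7 organisers of the synaptic cleft, 5 were called higher over RPE and 0 lower, with a median of 2.29. These were led by Lrit1 (3.99), a leucine-rich repeat protein of photoreceptors, Lrfn2 (2.62), Egflam (2.59), which encodes pikachurin, and Dmd (2.29), the dystrophin gene. The other Dmd probes gave 1.81, 1.85 and 0.15, the last not well above background on any array. Dag1, the dystroglycan that binds pikachurin and dystrophin, was not called over RPE (-1.31) and was called lower over CH (-2.16). It was past the limit against RPE on leaving out RPE replicate 3 (-1.37), PR replicate 2 (-1.37) or PR replicate 3 (-1.36).

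Bipolar cells contact these terminals and also use ribbons and genes of this set, Pclo, Stx3 and Slc17a7 among them, so genes linked to bipolar cells were followed as well. Of 8 genes of the bipolar dendrite tip 3 were called higher and 1 lower in PR over RPE, beside 5.17% of all probes higher and 10.3% lower. Grm6, the glutamate receptor of ON bipolar cells, read -1.06, 0.04 and -1.01 in PR and between -2.44 and -2.32 in RPE (log2 difference 1.69, adjusted p = 0.000294), but this call was lost under 2 of the alternatives, Cy5 alone after Aquantile (1.65, adjusted p = 0.0188) and the deposited table (1.70, adjusted p = 0.0178). Over CH the Grm6 call was lost under 4, among them without PR replicate 2 (1.24). Gnb5 (2.62), a G protein subunit that photoreceptors also use, and Lrit3 (1.67), a synaptic adhesion protein, were the others. Which cells the RNA of these 3 genes came from was not tested. Trpm1, the channel of ON bipolar cells, which pigment cells express too, was -3.14 at its reported probe, while its 2 other probes gave 0.02 and 0.85.

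PR replicate 2 held the most signal of several inner retinal cell types. Of the 8 bipolar markers 4 were called higher in PR over RPE, beside 5.17% of all probes. The mean log2 ratio of these 8 was 0.38 on PR replicate 2 against -0.62 and -0.33 on replicates 1 and 3, and between -1.60 and -1.23 on the RPE arrays. None of the 5 horizontal, 6 amacrine, 8 ganglion cell or 7 Müller glia markers with a probe was called higher in PR over RPE. In the same order 0, 1, 1 and 3 were called lower, beside 10.3% of all probes. At an unadjusted limma p below 0.05 the counts higher were 2, 1, 0 and 1, and the counts lower 1, 1, 6 and 3. Their means were nonetheless highest on PR replicate 2 among the PR arrays for Müller glia (-1.15 against -2.14 and -1.88), amacrine (-0.77 against -1.45 and -1.73) and horizontal cells (0.35 against -0.10 and 0.05). PR replicate 2 was also the highest PR array for 8 of the 10 ribbon synapse genes, with a mean ratio of 1.75 against 1.54 on each of the others. Without it, 9 of 10 genes were still called over RPE, with a median log2 difference of 2.21 and a range of 0.72 to 2.46. The part of these cells in the remaining values was not tested.

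Across the 9 arrays the genes whose log2 ratio ran closest to the mean of the 10 genes were, among 19802 gene names outside all lists that passed the signal limits, Gnb1, the beta subunit of rod transducin (Pearson r = 0.999), Ttll11 (r = 0.999), Grtp1 (r = 0.998), 5033430I15Rik (r = 0.998) and Arg2 (r = 0.998). These correlations describe 3 tissues of 3 arrays each, and every point shares the reference. They are therefore carried by the step between PR and the other tissues.

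Promoter sequence was looked up because the genes moved together in PR. CRX, the homeodomain factor of photoreceptors, prefers the letters TAATCC, of which TAATC (the reverse complement of GATTA) is the core. RefSeq promoters on GRCm38.p6, a different build from the files, were given for 7 of the 10 genes, in windows of 300 bases around each start. On either strand GATTA occurred for 4 of the 7 (Cacna1f, Cplx3, Unc119 and Stx3) and for 24.6% of all genes, and the longer TAATCC, which contains the core, for 2 of 7 (Unc119 and Stx3) and for 8.14% of all genes. A match describes the letters and is not a binding site.

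Promoter windows of Cacna1f and of 1 of the 3 listed starts of Unc119 are shown as 2 examples with a match upstream of the start, which Cplx3 also has. They lie at chrX:7606853-7607152 and chr11:78345334-78345633 (GRCm38.p6, plus strand), with matches to GATTA or TAATCC on either strand in capitals.
Cacna1f promoter: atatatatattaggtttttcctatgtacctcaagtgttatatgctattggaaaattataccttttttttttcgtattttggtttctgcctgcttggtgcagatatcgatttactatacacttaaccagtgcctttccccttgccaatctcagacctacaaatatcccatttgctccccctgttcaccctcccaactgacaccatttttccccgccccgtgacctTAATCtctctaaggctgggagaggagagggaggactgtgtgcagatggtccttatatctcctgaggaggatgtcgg
Unc119 promoter: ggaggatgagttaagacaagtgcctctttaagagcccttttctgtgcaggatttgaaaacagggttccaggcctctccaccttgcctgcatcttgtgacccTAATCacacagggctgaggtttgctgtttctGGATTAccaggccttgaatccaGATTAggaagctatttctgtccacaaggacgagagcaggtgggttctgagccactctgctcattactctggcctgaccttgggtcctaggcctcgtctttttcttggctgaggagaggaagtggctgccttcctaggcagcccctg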

How the data were processed

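The authors deposited the scanner output of 9 dual-colour Agilent arrays, with a mean signal and a local background per spot, both on the linear intensity scale. They also deposited a table of log2 values of the Cy5 channel, already normalized by steps not given in the sources used here, which correlated with the log2 Cy5 signal at 0.985 to 0.999 per array. Per the submitters' processing notes, Agilent Feature Extraction 9.5.3.1, R 2.14.0 and limma had been used. The software's processed signals and that table served as alternatives only.

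The normexp method with an offset of 50 removed background, and loess within each array normalized the log2 ratio of Cy5 over Cy3. Control spots had weight 0, and 228 to 586 outlier-marked spots per array were left out. Spots of a probe were averaged. One mean per tissue was estimated from all 9 arrays in R 4.3.3 using limma 3.58.1 and its moderated variances. The p-values of 39429 probes were adjusted together by the method of Benjamini and Hochberg. Calls were made at an FC over 2.5 with adjusted p under 0.01. The fit was tested on simulated data, and the median log2 difference of all probes is given beside that of the genes. The number of arrays limits the precision, and median Cy5 signals were between 617 and 1534 per array. p-values measure the spread between 3 eyes per tissue, and the sources used here do not say whether any eyes came from the same animal.

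The 10 genes and all lists were chosen with earlier results of these data known. Named were all 10 genes with every probe, paralogs by family, in the other lists up to 4 genes with the largest difference among those called in PR minus RPE, and Ctbp2, Cacnb2 and Dlg4. Some genes counted in the lists are not reported here by name. A Cy5 spot saturated on all arrays of a tissue gave only a bound, as the ratio of mean log2 Cy5 signals after loess and Aquantile normalization, which without dye swaps is open to dye bias. The closing section gives the effect of other normalizations, filters, blocks, thresholds and left-out arrays. The files give probe positions on mm9. No promoter was given for 3 of the 10 genes.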

Additional observations from a re-analysis of the deposited data

How the results depend on the processing

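The number of ribbon synapse genes called higher in PR was 7 to 10 over RPE and 8 to 10 over CH under 28 alternatives, and 9 in both whichever array was left out. Averaging all probes of a gene turned Stx3 for PR minus RPE to -0.37 and took away the calls of Stx3 over CH (0.24) and of Pclo over RPE (1.08). In the Cy5 channel alone Unc119 lost its calls (0.51 over RPE and 0.75 over CH after Aquantile, 0.27 and 0.58 after quantile normalization), and the deposited table gives it no value on the PR arrays. Calling a gene at any of its probes made 1 of the 10 lower in PR over RPE and 1 over CH, which is Stx3 at variant A, and 8 genes called in the ribbon list over CH. The software's own signals moved the median of all probes to 0.12 over RPE and 0.23 over CH, and raised Bsn over CH to 1.45.

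Replicate numbers did not pair the arrays: same-numbered arrays of different tissues correlated at -0.08 to 0.29 in their deviations from the tissue means, and other pairs at -0.31 to 0.25. With the replicate number as a block 9 of 10 genes were called over RPE and 9 over CH, and 0 between RPE and CH. The block moved none of the counts of the 10 genes or the 6 lists. With slide as a fixed block the paralogs called over RPE were 5 in place of 3, and within slide 3 they were 5. Median centring gave 1 bipolar dendrite gene called between RPE and CH, and in the vesicle list 1 gene passed there without CH replicate 3, at 2-fold, or within slide 3.

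At FC above 2 the paralogs called over RPE were 5, and 1 bipolar dendrite gene passed in RPE minus CH. At an adjusted p below 0.05 and any fold, 1 of the 10 genes passed in RPE minus CH. The counts over RPE were then 8 (ribbon), 12 (vesicle), 7 (calcium) and 13 (paralogs), over CH 9 (ribbon), 12 (paralogs) and 7 (bipolar), and in RPE minus CH 2 (ribbon), 1 (vesicle), 2 (calcium), 1 (cleft), 7 (paralogs) and 2 (bipolar). Leaving out 1 array gave 2 to 4 paralogs over RPE and 4 to 6 over CH, 5 to 7 cleft genes over RPE and 6 to 7 over CH, 3 to 5 bipolar dendrite genes over CH, 3 to 4 calcium genes and 8 to 9 vesicle genes over CH, and 0 to 1 vesicle genes in RPE minus CH. Beyond these, the causes were not tested.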
